A study of Mus musculus with 24 samples.

Results

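Gpnmb (ENSMUSG00000029816) is 1 of 55487 genes in the table of estimated counts and lies on the forward strand of chr6:49036546-49070929 (GRCm38), where the annotation gives 5 transcripts. It was picked by its symbol, because it was much higher with both drugs than with vehicle. The contrasts of drug with vehicle, and the difference of KO from WT under MK-8722, are therefore given as descriptions without a test. The 24 poly(A) RNA libraries came from mouse embryonic fibroblasts (MEFs), either wild type (WT) or lacking AMPK, the energy-sensing kinase (labelled AMPK KO, here KO, and described in the study as *prkaa1 prkaa2* double-knockout MEFs). Each genotype received vehicle (DMSO), MK-8722, an allosteric activator of AMPK, or torin1, an inhibitor of the kinase MTOR, with 4 libraries in each of the 6 groups. Dose and duration for these libraries are not given in the sources used here. WT cells were at passages 12 to 15 and KO cells at passages 16 to 19, each passage once per treatment, so genotype and passage range cannot be told apart. The design asks whether the response of this transcript to MK-8722 or to torin1 requires AMPK.

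Gpnmb encodes glycoprotein nonmetastatic melanoma protein B, a type I transmembrane glycoprotein of the endolysosomal and melanosomal pathway that can be shed from the cell surface. It is best known from melanocytes, osteoclasts and lipid-laden macrophages. The MiT/TFE transcription factors (TFEB, TFE3, MITF and TFEC) drive genes of lysosome biogenesis and autophagy, and Gpnmb is a known target of this family. MTORC1 phosphorylates TFEB and TFE3 at the lysosome and keeps them in the cytosol, and its inhibition lets them enter the nucleus.

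Library totals ranged from 26900240 to 34192685 estimated counts, and RNA integrity numbers from 9.7 to 10.0. Nothing in the labels says that libraries came from separate cultures beyond their passage numbers, so p-values measure the spread between these libraries. Prkaa1, which encodes AMPK alpha1, had 2046 to 2686 counts per KO library and 2043 to 2773 per WT library, and Prkaa2, which encodes alpha2, had 78 to 186 and 88 to 271. Reads summed over a whole gene cannot show whether 1 exon is missing, and the genotype could not be checked from them. Of 10 fibroblast markers, 8 passed the filter on low counts. Col1a1 ranged from 319 to 4840 CPM (counts scaled to library size) and Fn1 from 1940 to 6840 CPM, whereas Dcn did not exceed 0.331 CPM and Lum did not exceed 0.0314 CPM. Added together, the 10 markers made up 11100 to 17100 CPM of a WT library but 4770 to 6830 CPM of a KO library, and their part in the genotype differences was not tested.

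The transcripts and the promoter are shown first. Gpnmb-201 (ENSMUST00000031840, 11 exons, chr6:49036615-49058182) has 3701 bases, and Gpnmb-203 (ENSMUST00000204260, 11 exons, chr6:49036677-49070929) has 2430. Both are protein coding, with 1722 and 1578 coding bases without the stop codon, and they share the first 1571 of these. They part at the last exon, which lies at chr6:49056161-49058182 in Gpnmb-201 and at chr6:49070117-49070929 in Gpnmb-203. The first exon also starts earlier in Gpnmb-201. The end of each coding sequence is given because it is where the 2 coding sequences differ. The last 15 shared bases are in lower case and the bases particular to each in capitals (GENCODE M21, GRCm38, 5′ to 3′).
Gpnmb-201: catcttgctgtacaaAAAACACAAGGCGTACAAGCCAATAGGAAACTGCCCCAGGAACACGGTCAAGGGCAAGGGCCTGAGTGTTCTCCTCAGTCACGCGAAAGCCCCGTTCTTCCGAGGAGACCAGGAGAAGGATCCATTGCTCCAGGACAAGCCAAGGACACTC
Gpnmb-203: catcttgctgtacaaTCTAGGA
Gpnmb-201 continues for 151 coding bases and Gpnmb-203 for 7. The other 3 transcripts are a nonsense-mediated decay transcript of 365 bases (Gpnmb-202) and retained-intron transcripts of 645 bases (Gpnmb-204) and 1832 bases (Gpnmb-205).

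The 250 bases before the RefSeq start of Gpnmb (GRCm38.p6, chr6:49036268-49036517, forward strand) are shown because MiT/TFE factors bind E-box motifs, with the single match to the general E-box CANNTG in capitals.
Gpnmb promoter: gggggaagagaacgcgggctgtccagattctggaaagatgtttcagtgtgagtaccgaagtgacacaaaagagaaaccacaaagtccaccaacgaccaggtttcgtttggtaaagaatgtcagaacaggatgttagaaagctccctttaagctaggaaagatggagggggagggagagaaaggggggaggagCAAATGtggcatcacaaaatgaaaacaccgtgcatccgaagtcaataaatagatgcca
Over the whole window of 300 bases, which also takes in 50 bases after the start, both strands were searched for CACGTG, then for the motif CATGTG, and then for CANNTG, whose matches include those of the other motifs. Gpnmb had 0 matches to CACGTG, 0 to CATGTG and 2 to CANNTG. Among all 32851 promoter windows of this length, 7.15% held CACGTG, 14.2% held CATGTG and 72.3% held CANNTG. Counted per gene, with a match in any of its windows, the shares over 27025 genes were 8.09%, 15.9% and 75.0%. The list that follows is also counted per gene. Among the 34 of 43 genes of the MiT/TFE target list described below that matched a promoter, 16 held CACGTG, 7 held CATGTG and 31 held CANNTG. A match is a string of letters, not a bound site, and nothing about factor binding follows from its absence in this window. The window ends before the annotated starts of Gpnmb-201 (chr6:49036615) and Gpnmb-203 (chr6:49036677), and the bases between were not searched.

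Gpnmb was about 10 times higher with either drug in WT MEFs, and in KO MEFs it was higher with torin1 but not with MK-8722. Values are CPM scaled by the trimmed mean of M values (TMM), in passage order. In WT cells with DMSO the 4 libraries were at 5.9, 4.32, 4.42 and 2.95 CPM (4.4 ± 1.2, SD, n = 4). With MK-8722 they were at 54.9, 38.2, 45.1 and 37.2 CPM (43.9 ± 8.15). With torin1 they were at 59.5, 24.5, 43.0 and 36.2 CPM (40.8 ± 14.6). Every treated WT library lay above every DMSO library, and the ranges of the 2 drugs overlapped. In KO cells the DMSO libraries were at 0.641, 0.809, 0.84 and 1.08 CPM (0.842 ± 0.181). With MK-8722 they were at 0.782, 0.387, 0.901 and 0.681 CPM (0.688 ± 0.22). With torin1 they were at 21.8, 7.56, 20.7 and 13.7 CPM (16.0 ± 6.65). The DMSO and MK-8722 libraries of KO cells overlapped, while all 4 torin1 libraries lay above both.

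**Figure D1:**
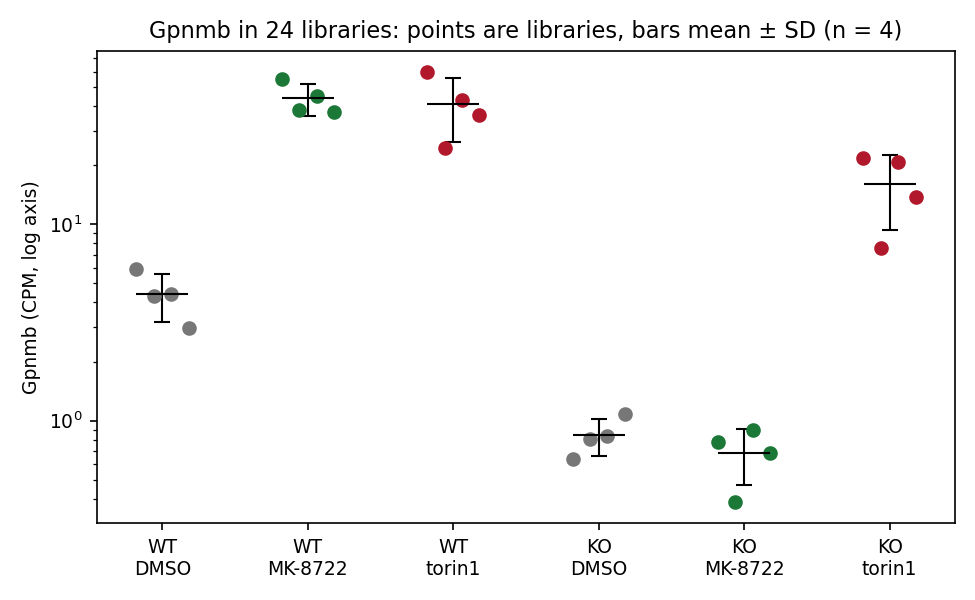
Gpnmb in CPM (log axis) in each of the 24 libraries, by genotype and treatment, with libraries in passage order within a group; horizontal bars with whiskers are the mean ± SD of 4 libraries. The 4 KO libraries with MK-8722 sit between 0.387 and 0.901 CPM, a range that overlaps that of KO cells with DMSO (0.641 to 1.08 CPM). KO cells with torin1 sit between 7.56 and 21.8 CPM.

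From highest to lowest, the group means ran WT with MK-8722, WT with torin1, KO with torin1, WT with DMSO, KO with DMSO and KO with MK-8722. Of the 5 pairs of neighbours in this order, the ranges of WT MK-8722 and WT torin1 overlapped, and so did those of KO DMSO and KO MK-8722. The ranges of the other pairs did not overlap. The lowest library, KO with MK-8722 at passage 17, had 12 counts, with an exact Poisson 95% interval of 6.2 to 21, and the highest, WT with torin1 at passage 12, had 1860. The intervals of all 8 KO libraries with DMSO or MK-8722 lay within 6.2 to 46.3 counts, and they cover counting error only. The comparison between these 2 groups therefore rests on 12 to 33 counts per library.

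On the log2 scale of the fit, Gpnmb differed from DMSO by 3.31 (SE 0.29) with MK-8722 and by 3.2 (SE 0.29) with torin1 in WT cells. In KO cells the differences were -0.28 (SE 0.59) with MK-8722 and 4.24 (SE 0.37) with torin1. By log2 fold change Gpnmb stood 14th from the top of 15828 tested genes with MK-8722 in WT, 32nd with torin1 in WT and 3rd with torin1 in KO. These contrasts share the DMSO libraries of each genotype and are those for which the gene was picked. For reference, 10.0% of tested genes were called higher and 5.66% lower with MK-8722 in WT, and 26.6% higher and 21.1% lower with torin1 in WT. In KO the shares were 0.866% higher and 0.695% lower with MK-8722, and 25.9% higher and 17.6% lower with torin1. A gene was called at an edgeR adjusted p under 0.05 with a fold change of at least 1.2.

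The higher fold change with torin1 in KO cells started from a lower level. The mean with torin1 was 18.9 times that with DMSO in KO and 9.27 times in WT, yet KO cells with torin1 stayed below all WT libraries with either drug. Taking KO minus WT, the difference between genotypes in the log2 response was -3.59 (SE 0.67) for MK-8722 and 1.04 (SE 0.51) for torin1. Neither was tested, since both contain the contrasts used for picking.

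The 3 genotype or drug contrasts that the choice of the gene did not name were tested across all genes with edgeR's quasi-likelihood test. Their libraries are all among those whose values led to the choice, so the adjusted p-values are not independent of it. The DMSO libraries were the reference for the rise. In the contrasts with torin1 both arms were high with a drug, so the choice acts on both. Gpnmb was lower in KO than in WT cells with DMSO, at a log2 difference of -2.39 (SE 0.43, adjusted p = 2.5e-05), and all 4 KO libraries lay below all 4 WT libraries. In that comparison 30.9% of tested genes were called higher and 26.0% lower. It was also lower in KO than in WT with torin1, at -1.36 (SE 0.25, adjusted p = 3.8e-05), again without overlap between the groups, where 31.0% of genes were called higher and 23.6% lower. With MK-8722 the corresponding log2 difference was -5.98 (SE 0.37), given as a description beside 31.4% of genes called higher and 27.5% lower. The difference between torin1 and MK-8722 in WT was -0.1 (SE 0.24, adjusted p = 0.73), with a 95% interval of -0.57 to 0.36, where 24.5% of genes were called higher and 21.2% lower. A fold difference within that interval between the 2 drugs could not be resolved.

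For its rank among other genes, Gpnmb was taken per length, in TPM (estimated transcripts scaled by length and library total). In WT cells Gpnmb was at 2.55 ± 0.694 TPM (SD, n = 4) with DMSO, 23.6 ± 4.54 with MK-8722 and 23.3 ± 7.71 with torin1. In KO cells it was at 0.532 ± 0.167 TPM with DMSO, 0.36 ± 0.197 with MK-8722 and 9.63 ± 4.43 with torin1. The median library had 29.5% of tested genes below Gpnmb in WT with DMSO and 61.2% in WT with MK-8722. The corresponding share was 8.13% in KO with MK-8722 and 43.5% in KO with torin1. Gpnmb thus moved from the lower part of the expressed genes to above the middle in WT with either drug.

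Within groups, Gpnmb varied more than most genes. Libraries of the same passage tended to deviate alike in WT, and in KO with MK-8722 and torin1 but not with DMSO. Its biological coefficient of variation was 0.271, above that of 94.3% of tested genes, against a common value of 0.079. With passage as a block it fell to 0.138. Among WT cells, passage 12 was the highest library in all 3 treatments, at 0.46, 0.34 and 0.61 above its group mean in log2 CPM for DMSO, MK-8722 and torin1. Among KO cells, passage 17 was the lowest library with MK-8722 and with torin1, at -0.68 and -0.96, but lay at -0.03 with DMSO. Passage 16 was the lowest KO library with DMSO, at -0.34, but the highest with torin1, at 0.57. A test with passage as a factor, chosen after these values were seen, gave an edgeR adjusted p of 0.00098 in WT and 0.0034 in KO, where 19.1% and 13.0% of tested genes were called. A linear slope over passages was -0.18 per passage in WT (SE 0.087, adjusted p = 0.26) and -0.04 in KO (SE 0.13, adjusted p = 0.95), so neither slope passed the threshold. In WT 1.78% of genes had a rising and 2.63% a falling slope past it, and in KO 0.0569% and 0.0885%.

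**Figure D2:**
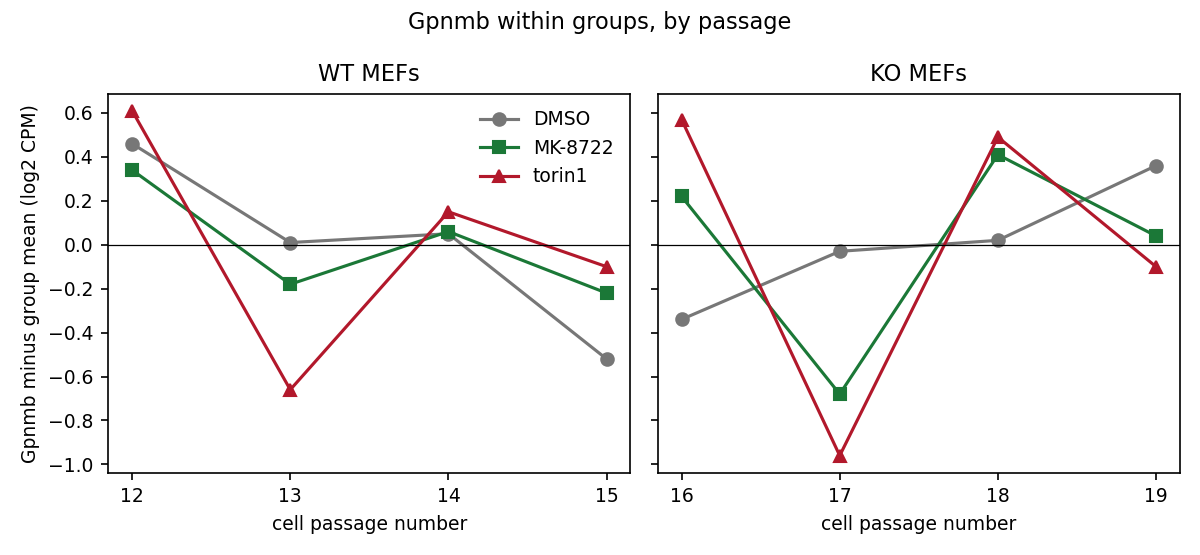
Deviation of each library from its group mean of Gpnmb (log2 CPM) against cell passage number, in WT (left) and KO (right), with 1 line per treatment and 1 library per point. Passage 12 is the highest point of all 3 lines in WT, and passage 17 reaches -0.96 in KO cells with torin1.

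Drug and DMSO were also compared at the same passage. With MK-8722 in WT cells the 4 ratios were 9.3, 8.86, 10.2 and 12.6 for passages 12 to 15. With torin1 in WT they were 10.1, 5.68, 9.72 and 12.2. All 8 WT ratios were above 5, so the WT difference was present at each passage with each drug. In KO cells with MK-8722 the ratios were 1.22, 0.479, 1.07 and 0.631 for passages 16 to 19, on both sides of 1. With torin1 in KO they were 34.1, 9.34, 24.7 and 12.7.

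Both protein-coding transcripts were higher where the gene was, and no difference in transcript share passed the threshold. In WT cells Gpnmb-201 was at 1.18 ± 0.392 TPM with DMSO, 12.1 ± 2.07 with MK-8722 and 12.5 ± 5.17 with torin1 (SD, n = 4). Gpnmb-203 was at 0.851 ± 0.331, 9.07 ± 2.23 and 7.97 ± 1.98 TPM in the same groups. In KO cells with torin1 the 2 transcripts were at 5.39 ± 2.26 and 3.15 ± 1.58 TPM. Gpnmb-201 made up 46.2% ± 7.36 of the gene's TPM in WT with DMSO, 51.4% ± 1.62 with MK-8722 and 52.6% ± 4.7 with torin1. It made up 57.5% ± 5.77 in KO with torin1. The shares of Gpnmb-203 in these 4 groups were 34.8% ± 16.4, 38.3% ± 4.87, 35.0% ± 3.7 and 32.4% ± 4.65.

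The shares in KO cells with DMSO or MK-8722 rested on few reads. In KO cells with DMSO the share of Gpnmb-201 ranged from 11.7% to 100% over the 4 libraries. In KO cells with MK-8722 it was 100% in 3 libraries and 57.0% in the other, and Gpnmb-203 was listed at 0 in all 4. These 4 libraries held 89 estimated counts of Gpnmb together. A count of 0 allows a share of up to 10.7% of the counts in the library with the most Gpnmb counts. It allows 25% in the library with the fewest and 3.37% over all 4, for counting error only. The limits take every count as able to tell the transcripts apart. Only reads that reach the last exons, or the first bases of Gpnmb-201 before the start of Gpnmb-203, can do so. The true limits are therefore higher. Over 14 comparisons of shares (2 transcripts, 4 drug contrasts and 3 genotype contrasts), the lowest p of the two-sided exact permutation test was 0.029, the smallest that 4 against 4 libraries can give. It was reached by both transcripts in KO against WT with MK-8722, with Benjamini-Hochberg adjusted p = 0.2. The other adjusted values of the exact permutation test ranged from 0.6 to 0.97. Gpnmb-202, Gpnmb-204 and Gpnmb-205 had at most 26.6 estimated counts in any library. Even so, with DMSO Gpnmb-204 held a mean 17.9% of the gene's TPM in WT and 18.2% in KO. These shares rested on at most 10.2 and 2.93 estimated counts per library. As a percent of estimated counts they were 4.27% and 4.19%, and Gpnmb-201 made up 65.0% in WT with DMSO.

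**Figure D3:**
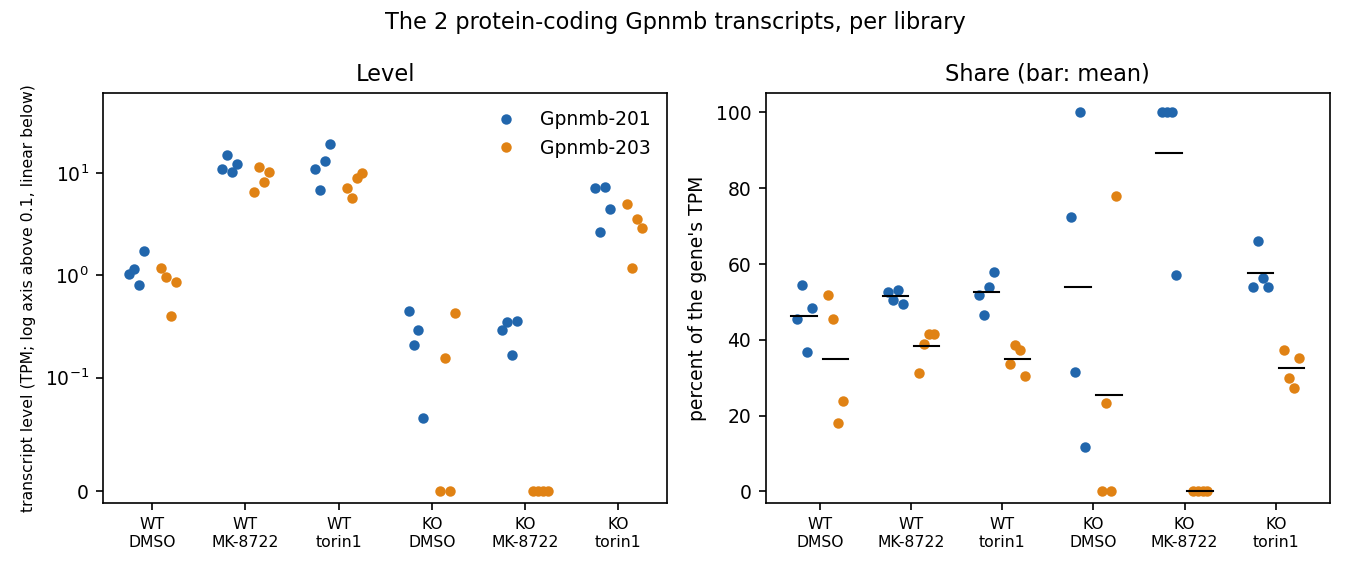
Level (left, TPM, on an axis that is logarithmic above 0.1 and linear below) and share of the gene's TPM (right, percent; bar, mean of 4) of Gpnmb-201 and Gpnmb-203 in each library. Shares in WT with MK-8722 lie close together (51.4% ± 1.62 for Gpnmb-201), whereas those in KO with DMSO run from 11.7% to 100%.

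None of the MiT/TFE genes was called higher with MK-8722, beside 10.0% of all tested genes in WT and 0.866% in KO. So few were tested that this count does not set them apart from the shares over all genes. Of the 4 MiT/TFE genes, Tfeb, Tfe3 and Mitf were tested and Tfec did not pass the filter. Tfeb was at 9.85 ± 0.935 CPM in WT with DMSO and 7.58 ± 0.63 with MK-8722, a fall by 0.38 on the log2 scale (SE 0.1, adjusted p = 0.0064). Tfe3 fell by 0.26 with MK-8722 in WT (SE 0.039, adjusted p = 1.7e-05), by 0.49 with torin1 in WT (adjusted p = 1.9e-10) and by 0.46 with torin1 in KO (adjusted p = 7.8e-10). Lower calls made up 5.66%, 21.1% and 17.6% of tested genes in these contrasts. With torin1 Tfeb was at 0.06 in WT (adjusted p = 0.63) and fell by 0.46 in KO (SE 0.096, adjusted p = 0.00025), and this difference between genotypes was called (-0.52, SE 0.14, adjusted p = 0.018). Mitf rose with torin1 in WT, by 0.45 (SE 0.16, adjusted p = 0.019), where 26.6% of genes were called higher. It was at 0.32 in KO (adjusted p = 0.096). With MK-8722 in KO cells none of the 3 was called by edgeR, 0 had an unadjusted p under 0.05, and the smallest adjusted p was 0.34. Over all genes there, 0.866% were called higher and 0.695% lower.

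The other genes of the pathway were taken from a list of 43 MiT/TFE targets in lysosomes and autophagy, of which 42 passed the filter (all but Atp6v0d2). With MK-8722 in WT cells 37 of the 42 were higher and 0 lower, with a median log2 fold change of 0.78. The median over all tested genes was 0.00, and 10.0% of them were called higher. With MK-8722 in KO cells 0 of the 42 were called by edgeR in either direction, with a median of 0.01, 5 had an unadjusted p under 0.05, and DESeq2 also called 0. With passage as a block, or without KO MK-8722 replicate 4, 1 was called lower. Over all genes 0.866% were called higher and 0.695% lower, so a count of 0 does not set the list apart. With torin1, 26 were higher and 0 lower in WT (median 0.56), and 27 were higher and 0 lower in KO (median 0.54). Over all genes the medians were 0.04 and 0.06, with 26.6% called higher and 21.1% lower in WT, and 25.9% higher and 17.6% lower in KO. The difference between genotypes in the MK-8722 response was called for 36 of the 42, all lower in KO, where 5.12% of genes were called higher and 7.66% lower. For torin1 it was called for 4, of which 2 were higher in KO, among them Fnip1 (0.49, SE 0.15), and 2 were lower, Rragd (-1.13, SE 0.33) and Ppargc1a (-1.29, SE 0.4). The background there was 4.15% higher and 2.92% lower, close to the share in the list. Over the alternatives tried the higher and the lower calls each ranged from 0 to 4. The lower calls fell to 0 when any of 4 single WT libraries was left out (DMSO replicate 2 or 4, torin1 replicate 3 or 4), and the higher calls without WT torin1 replicate 1 or 3, KO DMSO replicate 4 or KO torin1 replicate 4.

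Among the enzymes of the list, Hexa, the alpha subunit of beta-hexosaminidase, rose from 37.0 ± 3.07 to 96.5 ± 5.08 CPM with MK-8722 in WT (log2 1.38, SE 0.085, adjusted p = 4.5e-11). It was at 38.9 ± 2.22 and 40.2 ± 1.21 CPM in KO. Neu1, a lysosomal sialidase, rose by 1.78 with MK-8722 in WT (SE 0.075, adjusted p = 6.7e-14) but was at 0.24 with torin1 there, below the fold threshold. Ctsa, the protective protein of Neu1 and a carboxypeptidase, rose by 0.93 with MK-8722 and 0.67 with torin1 in WT. Naglu, which degrades heparan sulfate, rose by 1.25 in WT and 1.09 in KO with torin1. Ctsf, a cysteine protease, rose by 1.67 and 1.22 with torin1, although its level with DMSO was 10.6 ± 1.07 CPM in KO and 1.18 ± 0.0961 CPM in WT.

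Among transport and signalling members, Ctns, the cystine exporter of the lysosome, rose by 1.53 with MK-8722 and 1.27 with torin1 in WT, and by 1.13 with torin1 in KO. Flcn and Fnip1 form a complex that acts on the Rag GTPases at the lysosome. Flcn rose by 1.16 with MK-8722 and 0.61 with torin1 in WT, and by 0.9 with torin1 in KO. Fnip1 rose by 1.35 and 0.88 in WT, and by 1.37 with torin1 in KO. For scale, the highest log2 fold change in the list was 1.96 in WT with MK-8722 (Rragd), and 1.67 in WT and 1.37 in KO with torin1. Gpnmb was higher in each, as follows from its having been picked for a large rise.

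**Figure D4:**
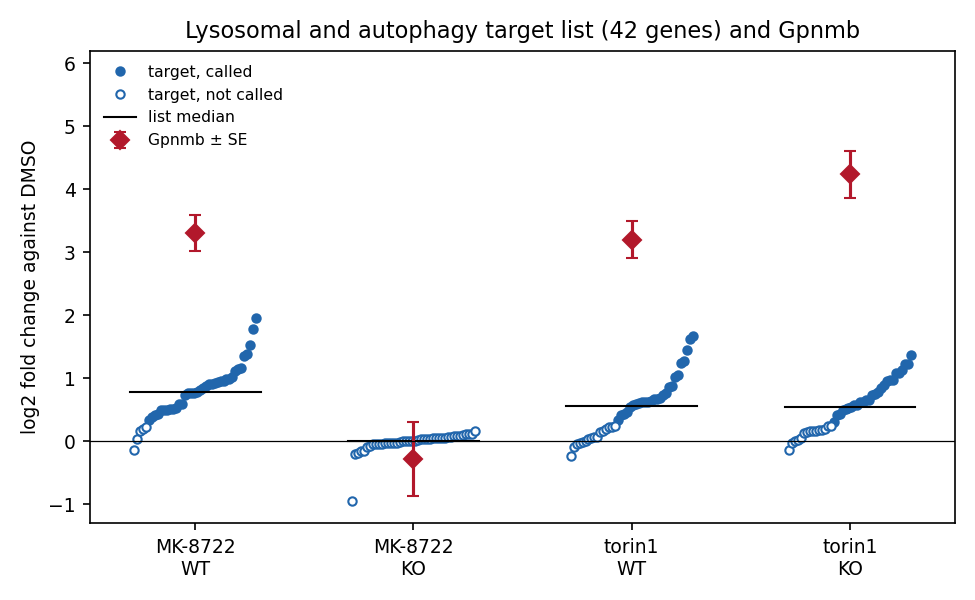
Log2 fold change against DMSO of the 42 tested MiT/TFE targets (circles, filled where called; bar, list median) and of Gpnmb (diamond ± SE) for each drug and genotype. With MK-8722 in KO cells all 42 circles are open and Gpnmb is at -0.28, while in the other 3 contrasts Gpnmb, picked for its large rise, is at 3.31, 3.2 and 4.24.

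Of the 9 genes listed as family and partners of Gpnmb, all passed the filter. Pmel, the melanosomal paralogue of Gpnmb, was at 0.348 ± 0.151 CPM in WT with DMSO and rose with torin1 to 1.14 ± 0.186 in WT (log2 1.68, SE 0.27, adjusted p = 7.5e-06) and from 0.638 ± 0.188 to 1.51 ± 0.19 in KO (1.23, SE 0.24, adjusted p = 9.2e-05). With MK-8722 in WT Pmel was at 0.43 (SE 0.3, adjusted p = 0.32). The sheddases Adam10 and Adam17, which release the ectodomain, were not called with either drug in either genotype, with log2 values between -0.14 and 0.07. Sdc4 and Itgb1 were not called either. Cd44, a cell-surface receptor for hyaluronan, rose with torin1 by 0.54 in WT and 0.34 in KO. Atp1b1, a subunit of the sodium pump, fell with torin1 by 1.4 in WT and by 1.02 in KO and rose by 0.34 with MK-8722 in WT. Itga5, an integrin subunit, rose by 0.43 with MK-8722 in WT and fell by 0.31 with torin1 in KO.

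Genes that accompany Gpnmb in lipid-laden macrophages are given by their values, since so few were tested that their counts cannot be set apart from the shares over all genes. Of 12, 7 passed the filter, and Cd36, Cst7, Itgax, Trem2 and Tyrobp did not. With MK-8722 in WT 2 of the 7 rose, Lgals3 (0.41, adjusted p = 0.0056) and Cd9 (0.28, adjusted p = 0.002), beside 10.0% of all genes called higher and 5.66% lower. With torin1 in WT 3 rose, Spp1 (0.82), Plin2 (0.62) and Lgals3 (0.47), while Fabp5 fell by 0.48 and Apoe by 1.09, beside 26.6% of all genes called higher and 21.1% lower. With torin1 in KO Plin2 rose by 0.4 and Fabp5 fell by 0.57, beside 25.9% and 17.6%, and with MK-8722 in KO none of the 7 was called by edgeR, 1 had an unadjusted p under 0.05, and the smallest adjusted p was 0.16.

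Defining markers of the cell types best known for Gpnmb were at or near 0, with a few less specific ones at low levels. Of 11 macrophage markers, Adgre1, Tyrobp, C1qa and C1qb were at 0 in every library, Ptprc did not exceed 0.0614 CPM, and the summed markers ranged from 3.91 to 6.58 CPM. Most of that sum was Cd68, at 1.1 to 4.09 CPM, and Cd14, with a median of 1.93 CPM. Their CPM overlaps that of Gpnmb with DMSO, but CPM takes no account of the length of a gene. Of 8 melanocyte markers, Tyr, Tyrp1 and Oca2 were at 0 throughout. The summed melanocyte level ranged from 0.183 to 0.99 CPM with DMSO or MK-8722 and from 0.991 to 1.74 CPM with torin1, most of it Pmel. Of 6 osteoclast markers none exceeded 0.701 CPM, and their sum ranged from 0.246 to 1.01 CPM.

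The 10 genes whose log2 CPM followed Gpnmb most closely over the 24 libraries, by Pearson's r, included Washc2 (0.989), Ap3d1 (0.986), Snx2 (0.985), Bri3 (0.985), Cmtm3 (0.982), Gnpda1 (0.981), Vps35l (0.979), Rnf13 (0.979) and Vps35 (0.978). Washc2 is a subunit of the WASH complex on endosomes, Ap3d1 a subunit of the AP-3 adaptor, Vps35 a subunit of retromer, Vps35l its counterpart in retriever, and Snx2 a sorting nexin. Being chosen for their likeness over these libraries, they follow the differences of Gpnmb between groups by construction. Their log2 fold changes were smaller than that of Gpnmb, from 0.37 to 1.51 with MK-8722 in WT. These values describe 24 points that fall into 6 groups and share libraries and scaling, and they say nothing of common control.

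**Figure D5:**
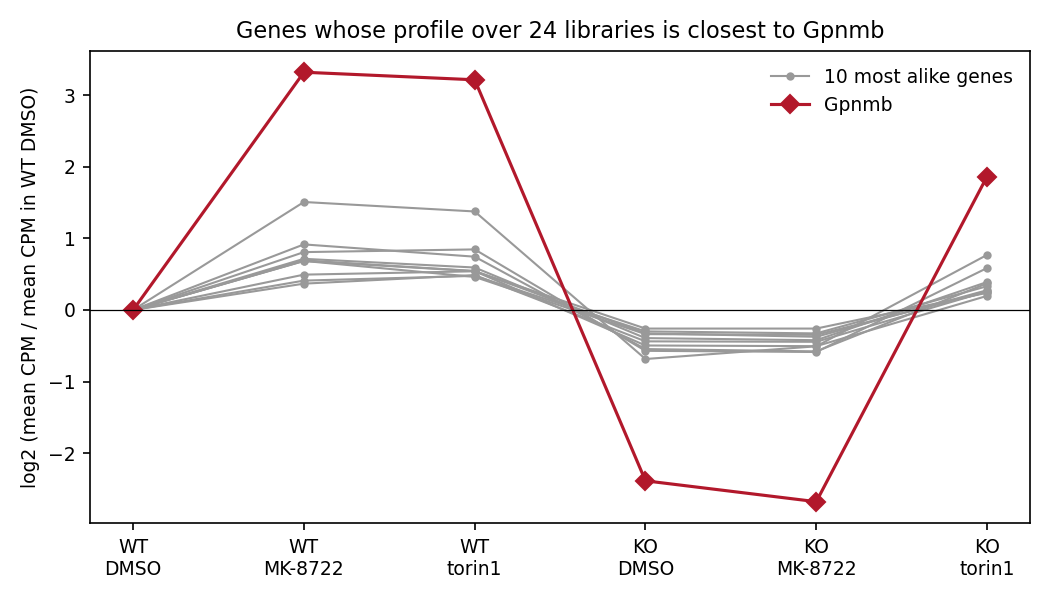
Mean CPM of Gpnmb (diamonds) and of the 10 genes closest to it (circles) in the 6 groups, as log2 relative to the mean in WT with DMSO. All 11 lines are above 0 in WT with either drug and below 0 in KO with DMSO or MK-8722; Gpnmb has the widest span.

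The choice of measure moved this ranking. By Spearman's rho 4 of the 10 stayed among the top 10, over the 6 group means 5 did, and with a mean of at least 5 CPM required all 10 did. On deviations from the group means, where the differences between groups are removed, 0 of the 10 were shared, and the closest genes included Hexa of the target list. The r of the first 10 on these deviations still ran from 0.32 (Cmtm3) to 0.81 (Gnpda1), and the last of the new top 10 was at 0.82. Among the 42 tested MiT/TFE targets the median r with Gpnmb was 0.8 and ranged from -0.46 (Cln3) to 0.974, against a median of -0.02 over 12918 genes. Gpnmb was picked for its rise with both drugs, and 37 of the 42 targets were called higher with MK-8722 in WT. These r values therefore largely repeat the differences between groups and are a description only.

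The tested genes nearest to Gpnmb on chromosome 6 did not share its pattern. Malsu1, a mitochondrial ribosome assembly factor that starts 2866 bases after the end of Gpnmb, was at 0.14 with MK-8722 and 0.13 with torin1 in WT, on the log2 scale, and was not called in any of the 4 drug contrasts. Igf2bp3 and Tra2a, further along, were not called either. Before Gpnmb, Zfp775, Tmem176b and Tmem176a rose with torin1 in WT, by 0.79, 0.57 and 0.62, beside 26.6% of all tested genes called higher. Zfp775 also rose in KO, by 0.49, beside 25.9%. Tmem176b fell by 0.4 with MK-8722 in WT, beside 5.66% of genes called lower. With so few neighbours, these calls cannot be set apart from the shares over all genes. No other annotated gene overlaps Gpnmb.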

How the data were processed

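Poly(A) RNA of the 24 MEF samples was read as short paired ends. The authors ran nf-core/rnaseq with STAR and Salmon on GRCm38, with options for unique molecular identifiers, and deposited estimated counts per gene and, per transcript, estimated counts and TPM. Salmon divides reads between transcripts that share sequence, so values of Gpnmb-201 and Gpnmb-203 are estimates. They rest on the last exons, on the earlier start of Gpnmb-201, and on read pairs that reach these parts. From the deposited estimated counts, rounded to whole numbers, 15828 of 55487 genes passed filterByExpr, and edgeR 4.0.16 (R 4.3.3) was fitted with TMM scaling and 6 group means over all 24 libraries. Calls needed a Benjamini-Hochberg adjusted p below 0.05 together with at least a 1.2-fold difference. The gene, its lists and the tests were chosen with earlier results of these data known. Transcript shares were percentages of the gene's TPM, compared with two-sided exact permutation tests (scipy 1.17.1). Log2 CPM for correlations used a prior count of 2.

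Genes were named by rule: Gpnmb, Prkaa1 and Prkaa2, the measured factors and partners, Hexa, Ctsa, Flcn and Fnip1, the 4 called targets that rose most and the 2 that fell most per drug contrast at a mean of at least 5 CPM, the 10 genes most alike (gene models without a name passed over), and the 3 tested neighbours on each side. Other list members were named after their values were seen, and a few genes that meet the rule are not reported here. Gene positions and transcripts came from GENCODE M21 (GRCm38) and promoters from RefSeq (GRCm38.p6). The fit was tested on simulated counts. Libraries of the same passage correlated above 0.1 in 15 of 24 pairs (median 0.129), against 0 of 72 pairs of other passages of the same genotype. Passage was therefore also used as a block. Alternatives covered scaling, filters, length offsets, DESeq2 1.42.0, the groups fitted, blocks and leaving out each library.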

Additional observations from a re-analysis of the deposited data

Results flagged for a closer look

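The response of Gpnmb to MK-8722 differed between genotypes by -3.59 on the log2 scale (KO minus WT, SE 0.67), with all 4 same-passage ratios of MK-8722 to DMSO above 8 in WT and ratios on both sides of 1 in KO. This difference was not tested, because the gene was picked for its level with the drugs. Among the 42 tested MiT/TFE targets, the MK-8722 response differed between genotypes for 36 members and the torin1 response for 4 members (edgeR interaction terms, adjusted p under 0.05 with a fold difference of at least 1.2). Over all genes 5.12% had a higher and 7.66% a lower MK-8722 response in KO, and 4.15% and 2.92% a higher and a lower torin1 response, so the 4 members for torin1 are close to the background.

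The share of Gpnmb-201 in the gene's TPM in KO cells with MK-8722 held 1 library apart from the rest. The library at passage 18 was at 57.0% and the other 3 were at 100%, so the gap made up the whole range of the group (ratio of gap to range 1.0, above the critical value of Dixon's test for 4 libraries). With 3 libraries tied at the ceiling, any lower value in the other gives this ratio. The level and the 2 shares were examined in each of 6 groups, 18 sets in all, and 1 was flagged, where chance flags about 1 in 20. The part of the low count in these libraries, 12 to 28 estimated counts of Gpnmb each, was not tested.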

How the results depend on the processing

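Every log2 difference of Gpnmb between drug and DMSO, or between genotypes, kept its direction under all alternatives. The 2 tested genotype differences stayed past the threshold, between -2.58 and -2.22 with DMSO and between -1.55 and -1.16 with torin1 when single libraries were left out. Their libraries are among those whose values led to the choice of Gpnmb, so staying past the threshold is not independent of that choice. The difference of torin1 from MK-8722 in WT was never called and ran from -0.34 to 0.06 with 1 library left out; its sign turned without WT torin1 replicate 2 (0.06) and without WT MK-8722 replicate 2 (0.04). The passage slope in KO, also not called, turned sign with a length offset (0.01), with the DESeq2 test (0.04), and without KO torin1 replicate 1 (0.26) or replicate 4 (0.03), over a range of -0.1 to 0.26. The number of MiT/TFE targets with a lower torin1 response in KO, 2 in the report, was 1 without a filter, 0 with at least 10 counts in every library, 1 with a length offset, 1 with the DESeq2 test, 4 when the compared groups were fitted alone and 0 without passage 12 in WT (a choice made after seeing the data). It ran from 0 to 2 with single libraries left out: 0 without WT DMSO replicate 2 or 4 or WT torin1 replicate 3 or 4, and 1 without WT DMSO replicate 1 or 3, KO DMSO replicate 1 or KO torin1 replicate 2, 3 or 4. The number with a higher torin1 response in KO, also 2, ran from 0 (compared groups alone, a fold change of at least 1.5, or without WT torin1 replicate 1 or 3, KO DMSO replicate 4 or KO torin1 replicate 4) to 4 (passage block, or adjusted p alone). The counts of targets called higher with each drug, and of those with a lower MK-8722 response in KO, stayed within 1.5 times under all settings. Targets called lower, 0 in each drug contrast, numbered 1 with MK-8722 in KO under the passage block, with adjusted p alone and without KO MK-8722 replicate 4, and at most 1 with torin1. No transcript share passed the threshold under any setting, which says nothing of stability, since the smallest adjusted p was 0.2 with all libraries and 0.27 with 1 left out. The share of Gpnmb-203 for torin1 in WT turned to -0.817 percentage points as a percent of estimated counts, and with single libraries left out to between -5.46 and 5.8 (negative values -1.08, -5.46, -0.622 and -3.5). Likewise, for MK-8722 in WT it ran from -2.13 to 9.13 (-2.13 and -0.166), and for torin1 in KO from -1.32 to 24.6. The share of Gpnmb-201 ran from -10.4 to 19.0 for torin1 in KO (-3.78 and -10.4) and from -7.69 to 21.8 for KO against WT with DMSO. The causes were not tested. Of the 10 genes most like Gpnmb, 4 were shared by Spearman's rho and 5 over group means. Replicate numbers do not pair the libraries (5 of 60 same-numbered pairs correlated above 0.1). With the replicate block, Gpnmb in KO against WT was at -2.39 with DMSO and -1.34 with torin1, and no call on Gpnmb changed. With passage as a block, which the data show to be shared, the corresponding values were -2.44 and -1.4 and no call on Gpnmb changed. Depth limits Gpnmb in KO cells with DMSO or MK-8722, at 12 to 33 counts per library.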
